A study of Rattus norvegicus with 26 samples.

Results

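Contraction of vascular smooth muscle is set by vasoactive ligands, by the G protein-coupled receptors that bind them, and by proteins that limit or oppose the signal. Endothelin-1, angiotensin II, serotonin and thrombin act through receptors coupled to Gq and related G proteins, which raise calcium in the cell. Regulators of G protein signaling (RGS proteins) speed the hydrolysis of GTP by the G protein and so shorten the signal, and soluble guanylate cyclase, the receptor of nitric oxide, makes the cGMP that relaxes the cell. The expression of 10 genes of this system was followed here while rat multipotent adult progenitor cells (rMAPCs) differentiated, and was compared with primary smooth muscle cells (SMCs). The genes were *Edn1* (the precursor of endothelin-1), *Ednra* and *Ednrb* (its receptors ETA and ETB), *Agtr1a* (the angiotensin II receptor AT1A), *Htr2b* (a serotonin receptor), *F2r* (the thrombin receptor PAR1), *Rgs2*, *Rgs4* and *Rgs5*, and *Gucy1a3* (the alpha 1 subunit of soluble guanylate cyclase).

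The members were chosen by name from the arrays, which carried 35287 different gene names, and each gene was measured by the brightest of its probes. No probe was named *Agtr1a*, and the probe of *F2r* was not well above background on any of the 26 arrays, so these genes are named and left out. Of the 8 genes that remained, 6 (*Edn1*, *Ednra*, *Ednrb*, *Rgs2*, *Rgs4* and *Gucy1a3*) passed that mark on all arrays of 1 or more groups and were tested. *Rgs4* and *Gucy1a3* did so only in primary SMCs, and *Ednrb* only on day 6 of the line Cl19. *Edn1* did so only on days 4 and 6 of Cl19 and in primary SMCs. Tests of these genes against those groups are not independent of the filter and give no separate support for the high level there. *Htr2b* and *Rgs5* were well above background only on some arrays of a group, 6 and 3 of 26 respectively, and are described without a test.

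The lines Cl19 and 3c3 are Oct4-expressing clones of rMAPCs from the bone marrow of 3-week-old female Fischer rats. Both were differentiated without serum under TGFβ1 plus PDGF-BB, and RNA was taken on d0, d2, d4 and d6, with 3 arrays per line and day. Primary SMC RNA was on 2 arrays, and it was commercial RNA, for which the labels (rat aortic RNA) and the methods (rat primary SMC RNA) name different suppliers, while a legend of the study speaks of cultured rat aortic SMCs. The study calls the 3 arrays per line and day biological replicates, while nothing says so of the 2 primary arrays, whose spread may be technical. Levels are log2 intensities after quantile normalization over all arrays, and a probe is called well above background as the scanner software marks it.

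Several features of the arrays bear on the members. The share of gene features well above background was 52.7% to 61.4% in Cl19, 43.2% to 57.1% in 3c3 and 43.6% to 44.5% in primary SMCs, and the lowest signal well above background lay between 1.52 and 2.73 in Cl19, 2.01 and 4.20 in 3c3, and 3.63 and 3.92 in primary SMCs. The 3c3 arrays of replicate 3 had a higher net signal on negative controls (9.46 to 21) than the other arrays (0.0303 to 5.46). The array labelled Cl19 d2 replicate 1 was nearer to the 3c3 d2 arrays (root mean square difference 0.382 to 0.538 over tested probes) than to the other Cl19 d2 arrays (0.876 and 0.917). Each line and the primary RNA had its own scan day and its own slides, so that differences in level between the lines, or from primary SMCs, cannot be told apart from slide and scan day, whereas the 4 days of a replicate shared a slide. Of 7 smooth muscle markers with a probe, all were well above background on both primary arrays. Their summed intensity rose from between 1844 and 2233 on d0 to between 61148 and 73095 on d6 in Cl19. In 3c3 it rose from between 1451 and 1684 to between 28951 and 45979, against 94333 to 96589 in primary SMCs. *Tagln* led the d6 sums (mean 15.85 in Cl19 and 14.78 in 3c3). Between these days, limma called 5 of the 7 markers higher in either line and 1 lower, the latter only for 3c3. *Myocd* went from 1.88 to 1.92 in Cl19 and from 2.47 to 1.27 in 3c3, against 7.04 in primary SMCs. *Synpo2* went from 3.35 to 3.01 and from 3.36 to 3.80, against 8.18.

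What each probe read is shown by the first 30 of its 60 bases, given 5′ to 3′ as the scanner files list them. Coordinates are those of the array annotation on the rat assembly rn4, and where in its transcript a probe lies was not examined.
*Edn1* (chr17:28304023-28304082, minus strand): catttcagggagaaactccaaagtccatgc
*Ednra* (chr19:32107666-32107725, plus strand): agtcacctggagtttctgtcagataatcgg
*Ednrb* (chr15:87893634-87893693, minus strand): ctggtgccaaacgtttgaggaaaaacagtc
*Rgs2* (chr13:57890958-57891017, minus strand): tgatgtagtcttaagaaaatcagatcacat
*Rgs4* (chr13:85534099-85534158, minus strand): ttgtacctgtactcccagactgctgtctca
*Gucy1a3* (chr2:173769025-173769084, minus strand): gacagattggaagatttcacaggacggggt
The probes of *Rgs4* and *Rgs5* (chr13:85480542-85482176) lie near each other on chromosome 13.

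**Figure D1:**
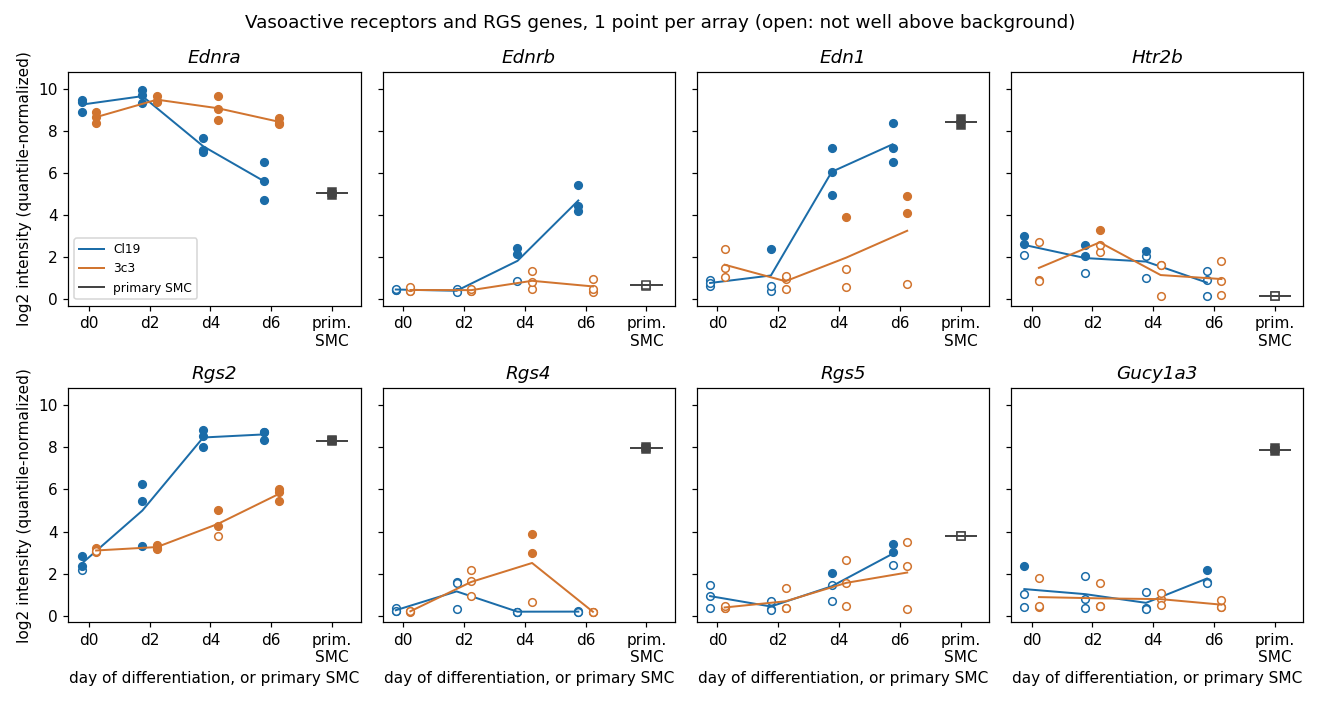
Level of each gene on every array (y axis, log2 intensity after quantile normalization) on d0, d2, d4 and d6 in Cl19 and 3c3 and in primary SMCs (x axis), with lines or bars through the group means and open symbols for arrays on which the probe was not well above background. *Edn1*, *Ednrb* and *Rgs2* climbed and *Ednra* fell in Cl19, while *Rgs4* and *Gucy1a3* were high only in primary SMCs.

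The ligand gene *Edn1* was induced in Cl19. Its level in Cl19 was 0.64, 0.91 and 0.77 on the d0 arrays, 0.38, 2.40 and 0.61 on d2, 4.93, 7.19 and 6.04 on d4, and 7.18, 8.39 and 6.51 on d6. None of the d0 arrays was well above background, 1 of the 3 d2 arrays was, and all d4 and d6 arrays were, with no overlap between d6 and d0. *Edn1* was therefore at least 12.9-fold higher on d4 and at least 32-fold higher on d6 than on d0 (adjusted p = 8.8e-05 and 5.3e-06 in limma), these folds being bounds that set each d0 array to its lowest signal well above background. Between d4 and d6 the difference of 1.31 on the log2 scale (95% confidence interval -0.60 to 3.21) did not pass the test (adjusted p = 0.52).

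In 3c3 the *Edn1* probe was dim for longer. Its level was 1.48, 2.40 and 1.04 on d0, 0.97, 1.09 and 0.51 on d2, 1.46, 3.90 and 0.58 on d4, and 4.90, 4.12 and 0.74 on d6. The probe was well above background on 1 d4 array and on 2 d6 arrays, and the d6 array that stayed dim was replicate 3, on the slide with the higher negative control signal. The d6 change of 1.61 on the log2 scale (interval -0.29 to 3.52) did not pass the test (adjusted p = 0.16), but it did without replicate 3 of 3c3 (2.57, adjusted p = 0.024), with the replicate as a block (1.61, adjusted p = 0.048), with 75th-percentile scaling (2.04, adjusted p = 0.025), on the deposited log2 values (2.35, adjusted p = 0.024) and with the floor (1.74, adjusted p = 0.0086). On d6 the change in Cl19 exceeded that in 3c3 by 4.97 ± 1.29 (SE) on the log2 scale (adjusted p = 0.0099), and on d4 it did so by 4.94 ± 1.29 (adjusted p = 0.013, but 0.056 without replicate 2 and 0.065 without replicate 3 of Cl19).

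Primary SMCs carried *Edn1* at 8.28 and 8.54. Both values lay within or near the range of Cl19 on d6, and the difference of 1.05 from Cl19 d6 (interval -1.08 to 3.18) did not pass the test (adjusted p = 0.37), while the mean was 35.7-fold above that of 3c3 on d6, where 2 of 3 arrays were well above background (adjusted p = 0.00015). By mean level the groups ran from primary SMCs (8.41) over Cl19 d6 (7.36) and Cl19 d4 (6.05) to 3c3 d6 (3.25), and the remaining groups had means of 1.98 or lower. Neighbours in the upper part of this order, primary SMCs and Cl19 d6, and Cl19 d6 and d4, did not differ beyond their spread.

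Of the endothelin receptors, *Ednra*, whose product mediates constriction in smooth muscle, was the member that fell. Its level in Cl19 was 8.89, 9.37 and 9.47 on d0, 9.33, 9.68 and 9.93 on d2, 7.68, 7.01 and 7.11 on d4, and 5.60, 4.70 and 6.52 on d6. The d0 and d2 arrays overlapped, every d4 array lay below them, and every d6 array lay below the d4 arrays. The change from d0 was 0.40 on d2 (interval -0.31 to 1.11, adjusted p = 0.47), then a 3.93-fold fall on d4 (adjusted p = 8.7e-05) and a 12.5-fold fall on d6 (adjusted p = 3.9e-08). The step from d4 to d6, 3.17-fold lower (adjusted p = 0.0053), lost its call without replicate 1 of Cl19 (adjusted p = 0.11).

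In 3c3, no change of *Ednra* from d0 passed the test. The values were 8.90, 8.39 and 8.66 on d0, 9.40, 9.65 and 9.39 on d2, 9.64, 8.53 and 9.05 on d4, and 8.35, 8.32 and 8.63 on d6. All d2 arrays lay above all d0 arrays, by 0.83 on average (interval 0.12 to 1.54), which did not pass the test (adjusted p = 0.099), and the d6 arrays overlapped those of d0 (change -0.22, interval -0.93 to 0.50, adjusted p = 0.64). The fall on d6 was 3.42 ± 0.48 (SE) log2 units larger in Cl19 than in 3c3 (adjusted p = 4.7e-05), and the difference was already 2.40 ± 0.48 on d4 (adjusted p = 0.0019).

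Primary SMCs had *Ednra* at 4.96 and 5.11, the lowest mean of the 9 groups. Cl19 on d6 overlapped these values and differed from them by 0.57 (primary minus d6 -0.57, interval -1.37 to 0.23, adjusted p = 0.19), whereas primary SMCs were 10.5-fold below 3c3 on d6 (adjusted p = 1.4e-07), 18.5-fold below Cl19 on d0 (adjusted p = 5.8e-09) and 12.2-fold below 3c3 on d0 (adjusted p = 5.2e-08). Without replicate 2 of Cl19, the array lowest on d6, primary SMCs were also below Cl19 d6 (-1.02, adjusted p = 0.02), as they were on the deposited log2 values without normalization between arrays (-2.78, adjusted p = 2.8e-07). A second *Ednra* probe, dimmer than the first, gave a 7.52-fold fall from d0 to d6 in Cl19, with 1 of 3 d6 arrays well above background (adjusted p = 3e-07), a change of -0.70 in 3c3 (adjusted p = 0.077) and no call between primary SMCs and Cl19 d6 (0.03, adjusted p = 0.95).

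*Ednrb*, the gene of the ETB receptor, which on endothelium releases nitric oxide and on smooth muscle can constrict, appeared late in Cl19. Its level there was 0.45, 0.46 and 0.48 on d0, 0.39, 0.47 and 0.35 on d2, 0.86, 2.16 and 2.45 on d4, and 5.42, 4.45 and 4.20 on d6. The probe was not well above background on d0 or d2, was so on 2 of the 3 d4 arrays, and was so on all d6 arrays. *Ednrb* was at least 5.03-fold higher on d6 than on d0 (adjusted p = 3.2e-09), and it rose 7.3-fold from d4 to d6 (adjusted p = 5.9e-05). The d4 rise of 1.36 (adjusted p = 0.0019) rests on values at the edge of the background, since it was -0.06 (adjusted p = 0.94) once values were floored at the lowest signal well above background. With the same floor the step from d4 to d6 was 2.39 on the log2 scale (adjusted p = 0.0048).

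No 3c3 array had *Ednrb* well above background, and the 12 values lay between 0.36 and 1.33. The change to d6 in 3c3 was 0.17 (interval -0.51 to 0.85, adjusted p = 0.7), and the change in Cl19 exceeded it by 4.06 ± 0.46 (SE) log2 units (adjusted p = 4.7e-06). The gene was not well above background on either primary array (0.63 and 0.68), so Cl19 on d6 was at least 1.89-fold above primary SMCs (adjusted p = 6.5e-09 for the measured values). With values floored at the lowest signal well above background this call was lost (primary minus d6 -0.92, adjusted p = 0.14). Cl19 on d6 had the highest *Ednrb* mean (4.69), and the other groups (0.40 to 1.82) had no measured order, since their values lay near or below the lowest signals well above background.

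*Htr2b* was seen at low levels in early cells. It was well above background on 2 d0 arrays (3.00 and 2.63), 2 d2 arrays (2.56 and 2.05) and 1 d4 array (2.31) of Cl19, on 1 d2 array of 3c3 (3.31), and on no d6 or primary array. The other 20 arrays gave between 0.15 and 2.70. Every Cl19 d6 value (0.16, 0.90 and 1.32) lay below every d0 value of that line.

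The 3 RGS genes behaved differently from each other. *Rgs2*, whose product prefers Gq as its substrate and limits vasoconstrictor signals, was the member induced in both lines. Its level in Cl19 was 2.19, 2.86 and 2.36 on d0, 3.29, 6.26 and 5.44 on d2, 8.02, 8.82 and 8.56 on d4, and 8.74, 8.73 and 8.37 on d6. Each of d2, d4 and d6 lay above d0 without overlap, the d4 and d6 arrays overlapped, and replicate 1 was the low array of d2. With 2 of 3 d0 arrays well above background, *Rgs2* rose 5.74-fold by d2 (adjusted p = 0.00064), 63.8-fold by d4 (adjusted p = 7.8e-09) and 70.4-fold by d6 (adjusted p = 3.4e-09), and the step from d4 to d6 was 0.14 (interval -0.85 to 1.14, adjusted p = 0.96). The d2 mean was 4.99 with all arrays and 5.85 without the d2 array of replicate 1 that lay near 3c3.

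In 3c3 the same gene rose later and less. Its level was 3.01, 3.20 and 3.09 on d0, 3.38, 3.17 and 3.24 on d2, 4.27, 5.02 and 3.79 on d4, and 5.87, 6.03 and 5.44 on d6. The d0 and d2 arrays overlapped, and all d4 and d6 arrays lay above both. *Rgs2* was 6.4-fold higher on d6 than on d0 (adjusted p = 0.00012). The 2.39-fold rise on d4 was near the threshold (adjusted p = 0.044) and was lost when any replicate of 3c3 was left out (adjusted p = 0.085 to 0.25), as well as without replicate 3 of Cl19 (0.073) or either primary array (0.05), which change only the shared estimate of the spread and the adjustment. The d6 rise was 3.46 ± 0.67 (SE) log2 units larger in Cl19 than in 3c3 (adjusted p = 0.001) and the d4 rise was 4.73 ± 0.67 larger (adjusted p = 8.7e-05), whereas the difference of 2.36 ± 0.67 on d2 did not pass the test (adjusted p = 0.19).

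In primary SMCs *Rgs2* was at 8.29 and 8.35. These values lay just below all Cl19 d6 arrays (primary minus d6 -0.29, interval -1.40 to 0.82, adjusted p = 0.64) and above all 3c3 d6 arrays (5.83-fold higher, adjusted p = 0.00027). On the deposited log2 values without normalization between arrays, the call against 3c3 d6 was lost (0.18, adjusted p = 0.8) and *Rgs2* was lower in primary SMCs than in Cl19 d6 (-2.69, adjusted p = 0.00065). By mean level the groups ran Cl19 d6 (8.61), Cl19 d4 (8.47), primary SMCs (8.32), 3c3 d6 (5.78), Cl19 d2 (4.99), 3c3 d4 (4.36), 3c3 d2 (3.26), 3c3 d0 (3.10) and Cl19 d0 (2.47). The place of Cl19 d2 turns on its replicate 1, without which its mean was above that of 3c3 d6. Cl19 d6 and d4 did not differ beyond their spread, nor did 3c3 d2 and d0 (adjusted p = 0.88), and the difference between primary SMCs and Cl19 d6 did not pass the test. All 3c3 d6 arrays lay above all d4 arrays (1.42, interval 0.42 to 2.41), a difference that missed the adjusted threshold (adjusted p = 0.063). In the fit reported here, *Rgs2* was the only tested member that changed over time in both lines. *Edn1* and *Ednra* also did so with the replicate block, the slide as a random block, percentile scaling or the deposited log2 values. Other settings added some of *Edn1*, *Ednra* and *Rgs4*, with *Rgs4* called in both lines by a separate fit per line. Across the 9 group means the tested genes most like *Rgs2* were *Rgs11*, another RGS gene (Pearson r = 1.00), and *Ier2*, an immediate early gene (r = 0.99). These correlations describe 9 means that share slides and processing.

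*Rgs4*, whose product acts on Gq and Gi and is known as a marker of vascular mural cells, was high only in primary SMCs, at 8.01 and 7.92. In Cl19 no array had it well above background, and the 12 values lay between 0.17 and 1.62. In 3c3 it was 0.20, 0.21 and 0.23 on d0, 2.19, 0.96 and 1.67 on d2, 3.88, 3.00 and 0.64 on d4, and 0.19 on each d6 array. Only the d4 arrays of replicates 1 and 2 were well above background, and the d4 array of replicate 3 lay on the slide with the higher negative control signal.

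The 3c3 course of *Rgs4* changed over time (adjusted p = 0.0017), and d4 was 2.29 log2 units above d0 (adjusted p = 0.0018). This call was lost when values were floored at the lowest signal well above background (0.93, adjusted p = 0.096), and the change was 1.60 to 3.23 as 1 replicate at a time was left out. The d4 change was lower in Cl19 than in 3c3 by 2.36 (adjusted p = 0.034), a difference that missed the threshold when any replicate of Cl19 (adjusted p = 0.077 to 0.13), or replicate 1 or 2 of 3c3 (0.15 and 0.14), was left out. From d0 to d6 the change of *Rgs4* was -0.07 in Cl19 and -0.02 in 3c3 (adjusted p = 0.93 and 0.98), and primary SMCs were at least 65.4-fold above Cl19 d6 and at least 35.2-fold above 3c3 d6 (adjusted p = 3.5e-10 in both comparisons). Since *Rgs4* was tested only because primary SMCs passed the filter, these p-values are no separate support for its high level there. A second *Rgs4* probe went against the first in primary SMCs, since it was not well above background on any array and was 1.51 and 1.81 there.

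*Rgs5*, a marker of pericytes and arterial smooth muscle, was at the edge of detection. It was well above background on 1 Cl19 d4 array (2.02) and on 2 of the Cl19 d6 arrays (3.01 and 3.43), with the remaining d6 array at 2.39, and all d6 values of Cl19 lay above its d0 values (0.39, 0.93 and 1.48). In 3c3 it reached 2.34, 0.33 and 3.49 on d6 but was not well above background there. Both primary arrays gave 3.79 and 3.81, also not well above background. The dimmest signals well above background on these arrays lay between 3.63 and 3.92.

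*Gucy1a3*, a subunit of the enzyme through which nitric oxide relaxes smooth muscle, separated primary SMCs from all differentiating cells. Its level was 7.95 and 7.81 in primary SMCs, and on the rMAPC arrays it lay between 0.33 and 2.38, with 1 Cl19 d0 array (2.38) and 1 Cl19 d6 array (2.15) well above background. No rMAPC array came near the primary values. The change from d0 to d6 did not pass the test in either line (0.50, interval -0.47 to 1.48, adjusted p = 0.39 in Cl19, and -0.36, interval -1.33 to 0.62, adjusted p = 0.56 in 3c3). Primary SMCs were 69.3-fold above Cl19 d6 (adjusted p = 2.8e-09) and at least 33.3-fold above 3c3 d6 (adjusted p = 1.7e-10). *Gucy1a3*, like *Rgs4*, was tested only because primary SMCs passed the filter. The second *Gucy1a3* probe was also highest in primary SMCs (4.21 and 4.62), although well above background on 1 of the 2 arrays.

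Among the 6 tested members, 4 changed over time in Cl19 and 2 in 3c3 by the joint F-test of the later days against d0, where 54.3% and 50% of all 24442 tested probes did. In 3c3 the count was 4 with the replicate as a block, *Edn1* and *Ednra* being added (adjusted p = 0.032 and 0.048). On d6, 3 members (*Edn1*, *Ednrb* and *Rgs2*) were higher than on d0 in Cl19 and 1 (*Ednra*) was lower, against 22.0% and 30.3% of all probes. In 3c3, 1 member (*Rgs2*) was higher against 19.7% of all probes. None was lower in 3c3, against 28.6% of all probes, and by the brightest probe none was so at an unadjusted p under 0.05 in limma or by the methods' t-test. The second *Ednra* probe was lower in 3c3 before adjustment (-0.70, interval -1.37 to -0.03, adjusted p = 0.077 in limma). The d6 change differed between the lines for 4 members (*Edn1*, *Ednra*, *Ednrb* and *Rgs2*), where 17.4% of all probes differed. On the deposited log2 values without normalization between arrays, 6771 probes were higher and 5396 lower on d6 in Cl19, against 5371 and 7394 after quantile normalization, and 6167 and 4758 in 3c3, against 4803 and 6989. With 6 tested genes, these counts describe the members and are not set against the background by a test.

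**Figure D2:**
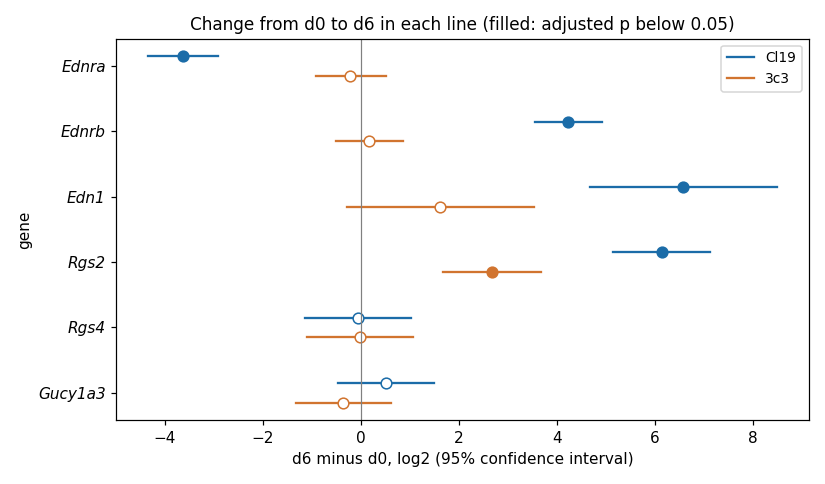
Change from d0 to d6 (x axis, log2, with 95% confidence interval) of the 6 tested genes (y axis) in Cl19 and 3c3, filled where the adjusted p was below 0.05. In Cl19 *Edn1* (6.58), *Rgs2* (6.14) and *Ednrb* (4.23) lie to the right of 0 and *Ednra* (-3.64) to the left, whereas in 3c3 only the interval of *Rgs2* (2.68) leaves out 0.

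Against primary SMCs, the lines on d6 differed in different members. Primary SMCs were higher than Cl19 d6 in 2 members (*Rgs4* and *Gucy1a3*) and lower in 1 (*Ednrb*), where 32.8% of all probes were higher and 38.6% lower. They were higher than 3c3 d6 in 4 members (*Edn1*, *Rgs2*, *Rgs4* and *Gucy1a3*) and lower in 1 (*Ednra*), where 33.4% of all probes were higher and 38.1% lower. In these counts *Rgs4*, *Gucy1a3* and *Ednrb* had passed the filter only through the group where they were high. The distance of Cl19 from primary SMCs (primary minus line, log2) went from 7.63 on d0 to 1.05 on d6 for *Edn1*, from 5.85 to -0.29 for *Rgs2* and from -4.21 to -0.57 for *Ednra*. In 3c3 it went from 6.77 to 5.16, from 5.22 to 2.54 and from -3.61 to -3.40 for the same genes. The d0 values of *Edn1* are of dim arrays, and as bounds primary SMCs were at least 66.3-fold above Cl19 d0 and at least 53.4-fold above 3c3 d0. *Rgs4* was at least 48.6-fold higher in primary SMCs than in Cl19 on d0 and at least 39.2-fold higher than in 3c3 on d0, and *Gucy1a3* was at least 37.1-fold higher than in 3c3 on d0. On the deposited log2 values without normalization between arrays, the median of all tested probes was -2.17 for primary minus Cl19 d6 and -2.09 for primary minus 3c3 d6 (-0.13 for each after quantile normalization), and 1640 probes were higher and 18111 lower in primary SMCs than in Cl19 d6, against 8010 and 9431 after it. The directions against primary SMCs are thus relative to that scaling. These distances share the 2 primary arrays and are not independent of each other.

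**Figure D3:**
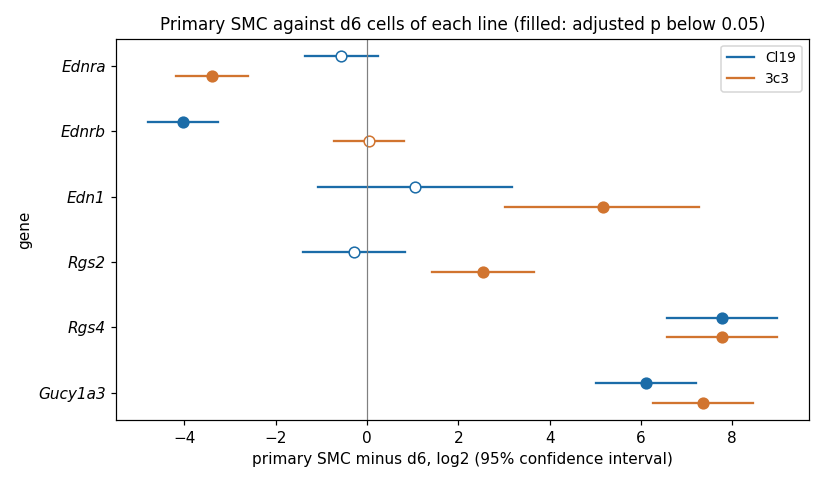
Primary SMCs minus d6 cells (x axis, log2, with 95% confidence interval) for the 6 tested genes (y axis), with d6 cells of Cl19 and of 3c3 in separate colours and filled points where the adjusted p was below 0.05. *Rgs4* (7.77 in both) and *Gucy1a3* (6.11 and 7.36) lie far above 0 for both lines, while *Edn1*, *Rgs2* and *Ednra* have intervals over 0 for Cl19 and not for 3c3.

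The other genes of these pathways were followed through 4 lists. Of 48 further vasoactive ligands and receptors, 32 were tested, of which 13 rose and 4 fell from d0 to d6 in Cl19, and 13 rose and 2 fell in 3c3, with 10 rising and 1 falling in both. Among all tested probes, 22.0% rose and 30.3% fell in Cl19, and 19.7% and 28.6% in 3c3. Their median change was 0.30 in Cl19 and 0.45 in 3c3, beside -0.20 and -0.21 for all tested probes. The gene of the α1B-adrenergic receptor, *Adra1b*, a Gq-coupled receptor of noradrenaline, rose at least 26.8-fold in Cl19 (adjusted p = 2.5e-07) and at least 8.14-fold in 3c3 (adjusted p = 5.4e-05). *Edn2*, the gene of a second endothelin, rose at least 12.5-fold in Cl19 (adjusted p = 2.1e-08) and by at least 1.07-fold in 3c3 (adjusted p = 0.00042), a difference between the lines of 3.09 (adjusted p = 0.0036). On d4 its mean was 5.82 in 3c3 and 5.05 in Cl19, with all arrays well above background, so that the 3c3 mean was higher on d4 than on d6 (2.77). *Ptger2*, the gene of a prostaglandin E2 receptor that raises cAMP, fell 12.6-fold in Cl19 (adjusted p = 6.7e-05) and 11.9-fold in 3c3 (adjusted p = 0.00012), with 1 of 3 d6 arrays well above background in each line. *Adra1b*, *Edn2* and *Ptger2* passed the filter only through groups where they were high, so their p-values are not independent of it.

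The genes named from this list did not stand in 1 relation to primary SMCs. *Edn2* was at least 4.67-fold lower in primary SMCs than in Cl19 on d6 (adjusted p = 2.2e-08), and its direction against 3c3 on d6 could not be measured, since the probe was dim on both primary arrays and on 2 of 3 d6 arrays of 3c3. *Adra1b* was 5.75-fold higher in primary SMCs than in 3c3 on d6 (adjusted p = 0.0038), with no call against Cl19 (1.12, adjusted p = 0.17). Over the list, primary SMCs were higher than Cl19 d6 in 12 genes and lower in 11, and higher than 3c3 d6 in 13 and lower in 9. Of all tested probes, 32.8% were higher and 38.6% lower against Cl19 d6, and 33.4% and 38.1% against 3c3 d6. The list was not tested against these shares.

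Of 16 further RGS genes, 11 were tested, of which 7 rose and 1 fell in Cl19, and 4 rose and 2 fell in 3c3. Over all tested probes 22.0% rose and 30.3% fell in Cl19, and 19.7% and 28.6% in 3c3. The median change was 1.78 in Cl19 and 0.12 in 3c3, beside -0.20 and -0.21 for all tested probes, and 4 genes rose in both lines. *Rgs8* rose at least 89.7-fold in Cl19 (adjusted p = 3.3e-06) and at least 5.06-fold in 3c3 (adjusted p = 0.0021). *Rgs16*, which acts on Gi and Gq, rose at least 8.45-fold and at least 6.48-fold (adjusted p = 3.6e-08 and 1.3e-07). *Rgs13* rose at least 5.18-fold and at least 2.96-fold (adjusted p = 0.00016 and 0.0067), and *Rgs11* 5.13-fold and 2.2-fold (adjusted p = 1.7e-06 and 0.0036). Unlike *Rgs2*, the first 3 of these were not well above background in primary SMCs and were lower there than in d6 cells of either line (adjusted p = 1.9e-05 and 0.012 for *Rgs8*, 7e-08 and 8.3e-08 for *Rgs16*, 6.5e-05 and 0.0002 for *Rgs13*). *Rgs8*, *Rgs16* and *Rgs13* passed the filter only through groups of later days, where they were high. Their p-values, for the rise and against primary SMCs, are therefore not independent of the filter.

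Of 21 genes that act downstream of G proteins on calcium and contraction, 17 were tested, of which 6 rose and 4 fell in Cl19, and 4 rose and 1 fell in 3c3, with medians of 0.16 and 0.26, beside the same shares and medians of all tested probes. *Itpr3*, the gene of an inositol trisphosphate receptor that releases calcium from stores, rose 44.1-fold in Cl19 (adjusted p = 3.4e-07) and 6.93-fold in 3c3 (adjusted p = 0.0008). *Ppp1r14a*, whose product CPI-17 inhibits myosin phosphatase, rose 3.33-fold and 1.73-fold (adjusted p = 7e-07 and 0.0033), and primary SMCs were still 12.9-fold above Cl19 d6 (adjusted p = 2.1e-11) and 21.9-fold above 3c3 d6 (adjusted p = 1.2e-12). *Arhgef1*, the gene of a guanine nucleotide exchange factor, rose 1.65-fold and 2.13-fold (adjusted p = 0.00015 and 2.2e-06). *Gnaq*, the gene of the Gq alpha subunit, fell 1.59-fold and 1.96-fold (adjusted p = 0.002 and 8e-05).

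Of 13 further genes of nitric oxide and cGMP signaling, 8 were tested, and 3 rose and 2 fell in each line, with 2 rising and 2 falling in both. The medians were -0.11 in Cl19 and -0.31 in 3c3, beside the shares and medians of all tested probes given above. *Nos3*, the gene of the endothelial nitric oxide synthase, rose at least 36.2-fold in Cl19 (adjusted p = 5.2e-10) and was well above background on 2 of 3 d6 arrays but no d0 array of 3c3, where the measured change was 1.47 on the log2 scale (adjusted p = 0.0084) with no bound above 1. In addition, *Nos2*, the gene of the inducible synthase, rose at least 1.5-fold and at least 2.76-fold (adjusted p = 0.0072 and 0.00039). *Gucy1a2*, the gene of the other alpha subunit of soluble guanylate cyclase, was at least 4.78-fold lower on d6 in Cl19 (adjusted p = 4.1e-05) and at least 1.82-fold lower on d6 of 3c3 (adjusted p = 0.0003). *Prkg2*, the gene of a cGMP-dependent kinase, was at least 3.78-fold lower in Cl19 (adjusted p = 1.3e-05). In 3c3 it changed by -2.24 on the log2 scale (adjusted p = 0.0016), with 1 of 3 d0 arrays and no d6 array well above background. *Gucy1a2* and *Prkg2* passed the filter only through d0 groups, and *Nos3* and *Nos2* only through other groups where they were high. The p-values of these genes are therefore not independent of the filter. Primary SMCs were higher than Cl19 d6 in 4 of the 8 genes and lower in 1, and higher than 3c3 d6 in 4. *Gucy1b3*, *Pde5a* and *Kcnmb1* were among those higher than both lines. *Prkg1* was called only against Cl19 (1.77, adjusted p = 0.0036). *Nos3* was lower than in Cl19 d6 (-2.38, adjusted p = 0.00021) and higher than in 3c3 d6 (2.72, adjusted p = 5e-05). Of all tested probes, 32.8% were higher and 38.6% lower against Cl19 d6, and 33.4% and 38.1% against 3c3 d6.

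**Figure D4:**
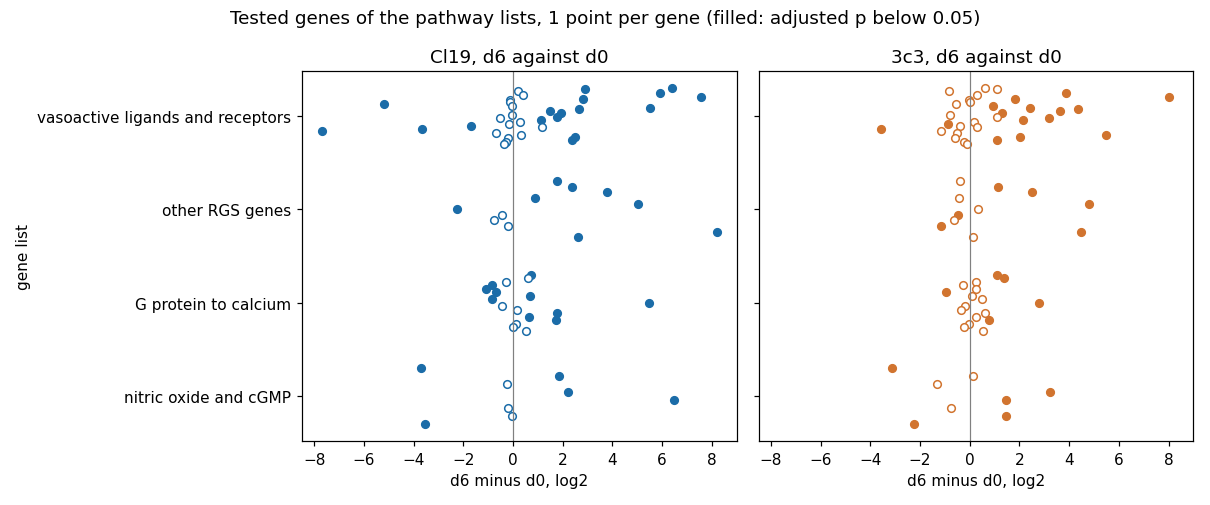
Change from d0 to d6 (x axis, log2) of each tested gene of the 4 lists (y axis) in Cl19 and in 3c3, 1 point per gene, filled where the adjusted p was below 0.05. The other RGS genes lie mostly to the right of 0 in Cl19 (median 1.78) and are centred near 0 in 3c3 (median 0.12).

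Markers of other cell types were also followed. Of 6 endothelial markers, 3 fell from d0 to d6 in Cl19, and their summed intensity went from between 244 and 294 to between 56.7 and 86.8, while in 3c3 1 rose and 1 fell and the sum went from between 147 and 177 to between 189 and 222. *Pecam1*, *Tek*, *Tie1* and *Kdr* were not well above background on either primary array, where the endothelial sum was 27.2 to 39.7. *Cdh5* and *Vwf* were each well above it on 1 primary array. The mean of *Cdh5* was highest in primary SMCs (3.99, against 2.54 in Cl19 and 2.80 in 3c3 on d6), whereas that of *Vwf* was lower there (2.92, against 5.42 and 5.98). Among 4 fibroblast markers, *Lum* rose from a mean of 0.62 to 7.67 and *Dcn* from 0.29 to 2.97 in Cl19 but not in 3c3 (0.81 to 1.33 and 0.31 to 0.37), while the fibroblast sum, led by *Pdgfra*, went from between 4910 and 5421 to between 1362 and 1857 in Cl19 and from between 4459 and 5176 to between 1222 and 1635 in 3c3. Of 4 pericyte markers, *Cspg4*, *Pdgfrb* and *Kcnj8* were well above background in primary SMCs (means 14.78, 13.74 and 8.85), beside the high *Rgs4*, whereas only *Cspg4* was well above background on all Cl19 d6 arrays and none on any 3c3 d6 array. The pericyte sum was 41957 to 42476 in primary SMCs, 18.1 to 214 in Cl19 on d6 and 7 to 14.4 in 3c3 on d6. The leukocyte sum was 848 to 879 in primary SMCs and at most 292 in rMAPC cultures, carried by *Cd14* (mean 9.65 in primary SMCs). *Ptprc* had a mean of 5.11 in primary SMCs, well above background on both arrays, against 1.20 in Cl19 and 0.79 in 3c3 on d6. Of 4 leukocyte markers, 2 were higher and 2 lower in primary SMCs than in Cl19 on d6, the lower ones being *Cd68* (4.69 against 6.75) and *Lyz2* (0.52 against 5.19), and *Lyz2* went from 0.45 to 5.19 in Cl19 and from 0.90 to 4.96 in 3c3 between d0 and d6. The part of these cells in the members' values was not tested, and in bulk RNA fewer cells of a type and less RNA per cell cannot be told apart.

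*Edn1* and *Rgs2* were the members with the largest measured rise from d0 to d6 in Cl19, and their upstream sequences are shown, from RefSeq on the assembly GRCr8, a later build than that of the probes. Each runs 5′ to 3′ on the gene's strand from 250 to 101 bases before the annotated start, with capitals marking the letters of a GATA motif (AGATAA on either strand), TATAAA (forward strand only) and the CRE half-site TGACG (either strand).
*Edn1* (chr17:22666788-22666937, minus strand): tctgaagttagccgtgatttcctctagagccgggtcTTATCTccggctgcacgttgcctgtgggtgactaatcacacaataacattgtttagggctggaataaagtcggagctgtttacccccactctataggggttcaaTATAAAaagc
*Rgs2* (chr13:58352767-58352916, minus strand): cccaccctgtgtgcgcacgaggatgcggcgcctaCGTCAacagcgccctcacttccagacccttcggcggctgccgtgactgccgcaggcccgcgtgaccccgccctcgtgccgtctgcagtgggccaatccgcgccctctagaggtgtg

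Within 250 bases before the start, *Edn1* held the GATA letters 214 bases and TATAAA 110 bases before it, and *Rgs2* held the CRE half-site 216 bases before it. GATA letters were in 10.3%, TATAAA in 8.06% and the half-site in 18.2% of 33469 rat promoters of the same length, so none of these is particular to the members. The half-site was also found for *Ednrb* (88 bases), *Rgs4* (153 bases) and *Agtr1a* (159 bases before the start). TATAAA was also found for *Rgs4* (42 bases) and *Agtr1a* (45 bases before the start). The SMAD letters CAGAC, on either strand, were in 42.9% of promoters and in the windows of *Ednra*, *Ednrb*, *Edn1*, *Htr2b*, *Rgs2*, *Rgs5* and *Gucy1a3*. The AP-1 letters TGACTCA, on either strand, were in 4.05% of promoters and among the members only in *F2r*, and the CArG box of serum response factor, in 1.5% of promoters, was in none of the 10 members' windows. A match describes letters only.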

How the data were processed

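RNA of both rMAPC lines on 4 days and of primary SMCs was labeled with Cy3 and hybridized to 26 Agilent 1-colour arrays on 7 slides. The authors quantified them with Agilent Feature Extraction 10.1.1.1 and deposited its background-corrected intensity for each feature, and a table of log2 values that equals the log2 of these intensities. The log2 intensities of 43379 gene features were quantile-normalized, outlier features were left out, and features of a probe were averaged (41012 probes). Probes that the scanner software marked as well above background throughout 1 or more of 9 groups (24442) were fitted together with limma 3.58.1 in R 4.3.3 (Python 3.11.15 read the files), with Benjamini-Hochberg adjustment, a threshold of 0.05 and 95% confidence intervals, a procedure tested on simulated data. A fold is a bound where 1 group was dim on all its arrays. Genes of other lists were named where they changed the same way in both lines, up to 4 with the largest mean change (1 such gene is not reported here), and genes of like course by the highest Pearson r over group means. The members and lists were chosen with earlier results of these data known. Replicate numbers pair the arrays by slide, as the file headers show: deviations from group means correlated over 0.1 in all 6 pairs of d0 with d6 (lowest 0.11), in 18 of 18 pairs within 3c3 slides and in 16 of 18 within Cl19 slides (lowest 0.06). The number of arrays limits the precision. Alternatives were 75th-percentile scaling, normexp with an offset of 50, the deposited log2 table, dim probes kept in, a floor at the lowest signal well above background, the replicate or slide as a block, a fit per line, the mean over a gene's probes, outliers kept, the methods' t-test and area method (50000 noisy profiles, percentile 99), and leaving out each replicate or the Cl19 d2 array of replicate 1.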

Additional observations from a re-analysis of the deposited data

Results flagged for a closer look

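The change from d0 to d6 differed between the lines, by the interaction test of limma, for 4 of the 6 tested members. Cl19 minus 3c3, the difference was -3.42 on the log2 scale for *Ednra* (adjusted p = 4.7e-05), 4.06 for *Ednrb* (adjusted p = 4.7e-06), 4.97 for *Edn1* (adjusted p = 0.0099) and 3.46 for *Rgs2* (adjusted p = 0.001). For *Ednrb* and *Edn1* these are differences of fitted values that include arrays not well above background. *Ednrb* was tested only because Cl19 d6 passed the filter, and *Edn1* only through Cl19 d4, Cl19 d6 and primary SMCs. The p-values of both genes are not independent of the filter. With values floored at the lowest signal well above background, the difference was 2.18 for *Ednrb* (adjusted p = 0.033) and 3.26 for *Edn1* (adjusted p = 0.0032). Each line had its own slides and scan day, but d0 and d6 of a replicate shared a slide, so that a slide effect common to both days cancels in these differences. The order of the days on the slide was the same throughout, so an effect of position does not cancel within a line.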

How the results depend on the processing

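The counts of members kept within 1.5 times their value in 194 recomputations and moved further in 16. In 3c3, 4 members changed over time with 75th-percentile scaling, on the deposited log2 values, with the replicate block and with the slide as a random block (2 as reported), and 2 members were higher on d6 with 75th-percentile scaling, on the deposited log2 values, without a filter on dim probes, with the floor and with the replicate block (1 as reported). The replicate block changed no other count, and of single changes it added the d6 rise of *Edn1* in 3c3 (1.61, adjusted p = 0.048). Primary SMCs were lower than Cl19 d6 in 3 members on the deposited log2 values and in 0 with the floor (1 as reported). Without a filter on dim probes 2 members were lower on d6 in Cl19, *Htr2b* being added (-1.79, adjusted p = 0.017). The methods' area method called 2 members in Cl19 (*Edn1* and *Rgs2*) and 0 in 3c3. Leaving out 1 replicate at a time, the counts ranged from 4 to 5 over time in Cl19, from 2 to 3 over time in 3c3, from 1 to 2 for higher on d6 in 3c3 (2 without replicate 3 of 3c3) and from 1 to 2 for lower in primary SMCs than in Cl19 d6 (2 without replicate 2 of Cl19), and the other counts did not move.

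Directions that turned were of differences not called, apart from the d4 change of *Ednrb* in Cl19 (-0.06 with the floor). *Rgs4* d6 against d0 in 3c3 was 0.17 with 75th-percentile scaling, 0.48 on the deposited log2 values, 0.16 with the floor and 0.24 as the mean over probes. In Cl19 it was 0.03 with normexp and 0.03 on the deposited log2 values, with a difference between the lines of 0.05 with normexp. On the deposited log2 values *Ednra* in 3c3 was 0.08, *Gucy1a3* in 3c3 0.08, *Edn1* in primary SMCs against Cl19 d6 -1.37 and *Ednrb* in primary SMCs against 3c3 d6 -0.71. With the floor *Gucy1a3* was -0.35 in Cl19 and 0.16 in 3c3, with a difference of -0.51. With outlier features kept, *Ednrb* in primary SMCs against 3c3 d6 was -0.20. Leaving out 1 replicate at a time, *Rgs4* ranged from -0.10 to 0.00 in Cl19 and its difference between the lines from -0.08 to 0.02, *Gucy1a3* in 3c3 from -0.68 to 0.14, and *Ednrb* in primary SMCs against 3c3 d6 from -0.08 to 0.22. Apart from the floor, which sets dim signals equal, the cause of these changes was not tested. Signals near background limit *Ednrb*, *Rgs4*, *Rgs5*, *Htr2b* and *Gucy1a3* most, and normexp with its offset shrinks their changes.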

Other observations

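A probe named *Agtr1* carries the accession that the gene table pairs with *Agtr1a*, the gene of the AT1A angiotensin receptor. It falls outside the naming rule and was chosen after its values were seen. Because it passed the filter only in Cl19 on d4 and d6 and in primary SMCs, where it was high, its p-values are no support. Its level in Cl19 was not well above background on d0 (mean 0.63) and d2 (0.64), was well above it on all arrays of d4 (4.09 to 5.35) and d6 (3.07 to 5.03), and was at least 3.77-fold higher on d6 than on d0 (adjusted p = 1.3e-07). On the 12 arrays of 3c3 it was not well above background on any day (means 0.44 to 0.61). Primary SMCs had 11.95 and 11.96, which was 205-fold above Cl19 d6 (adjusted p = 3.3e-12) and at least 559-fold above 3c3 d6 (adjusted p = 7.1e-15). The nearly identical paralog *Agtr1b* could share its signal.

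Within the list of vasoactive genes, some receptors were as far apart between primary SMCs and d6 cells as *Rgs4* and *Gucy1a3* were. Primary SMCs exceeded Cl19 d6 and 3c3 d6 by 9.63 and 9.49 log2 units for *Avpr1a*, the vasopressin V1a receptor, and by 9.46 and 9.45 for *Adra1d*, an α1-adrenergic receptor, and neither changed from d0 to d6 in Cl19 by limma (adjusted p = 0.55 and 0.14). *Ace*, the gene of angiotensin-converting enzyme, rose by 6.42 in Cl19 (adjusted p = 6.4e-11) and changed by 0.60 in 3c3 (adjusted p = 0.19), and *Ramp1*, a subunit of the CGRP receptor, rose by 5.50 in 3c3 (adjusted p = 1.1e-10) and changed by 0.31 in Cl19 (adjusted p = 0.44). *Gucy1b3*, the partner subunit of *Gucy1a3*, rose by 1.85 in Cl19 (adjusted p = 0.00065) and was 5.98 and 7.58 higher in primary SMCs than in d6 cells of Cl19 and 3c3. These genes were chosen after their values were seen.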
